A study of Homo sapiens with 13 samples.

Results

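The respiratory chain genes are here protein-coding genes for subunits of mitochondrial complexes I to V and some of their assembly factors, as far as a symbol rule finds them. Members were taken by symbol: names starting NDUFA, NDUFB, NDUFC, NDUFS, NDUFV, UQCR, COX4 to COX8, ATP5 and SDHA to SDHD, without pseudogenes, and the 13 protein-coding genes of the mitochondrial genome. The bulk table held 115 of them among 57820 gene identifiers, 102 nuclear and 13 mitochondrial. The symbol rule left out CYC1, a complex III subunit kept in another list here. It took in the read-through genes ATP5MF-PTCD1 and NDUFC2-KCTD14, the inhibitor ATP5IF1, and UQCRHL and ATP5MGL. The single-cell table held 93 nuclear members among 15005 genes and 0 mitochondrially encoded genes, so the 2 genomes could be set against each other in the bulk tumours only.

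All tumours were grown in athymic nude mice from BM1 cells, a bone-tropic line that goes back to MDA-MB-231 (human breast cancer), after 1000000 cells had been placed in the mammary fat pad. The bulk arms were 5 tumours of BM1 cells that carried a lentiviral human KMT5C, a histone H4 lysine methyltransferase, and 5 tumours (CTRL) of cells with the empty vector, all taken at 4 weeks. The single-cell arms were 3 tumours of BM1 cells expressing RKIP as the S153E mutant and 3 tumours (CTRL) of vector cells, all taken at 3 weeks. Both bulk constructs went into stable, selected cells, and pooling or clonality is not stated. Each arm therefore rests on 1 engineered line, so differences between the lines other than the construct cannot be told apart from it, and p-values measure the spread between tumours of these lines. The single-cell tumours had been depleted of mouse and dead cells, per the labels' protocols, and the bulk tumours were homogenised whole.

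The respiratory chain passes electrons from NADH (complex I) and succinate (complex II) through ubiquinone, complex III and cytochrome c to oxygen at complex IV, and the proton gradient made on the way drives ATP synthesis at complex V. Complex II is built from nuclear genes alone. The other 4 complexes combine nuclear subunits, which are translated in the cytosol and imported, with a few core subunits that are transcribed and translated inside the organelle. The factors NRF1 and GABP (of the ETS family) are known to bind the promoters of many nuclear members, and subunits of complex IV in particular exist as isoforms used in different tissues.

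The promoters of 82 of the 102 nuclear members were matched in RefSeq (GRCh38.p14, from 250 bases before to 50 after the gene start). On either strand, the NRF1 core (GCGCA, any base, GCGC) occurred in 20 of these 82 genes (24.4%) against 6.98% of 27305 genes with a promoter in the same table. The ETS core CCGGAAG occurred in 25 (30.5%) against 12.2%. At least 1 of both occurred in 41 members against 17.6% of all genes, and both in 4 (4.88%) against 1.36%. A pair of stricter strings that lie within these motifs was also searched: the NRF1 core with T as its free base was in 5 members (6.10% against 1.52%), and CCGGAAGT was in 13 (15.9% against 4.95%). The 27305 genes are all those with a promoter, and were not matched to the members in expression or base composition. The strings were chosen while the promoters were at hand. A match is a description of the letters and not evidence of binding. Shown here are the 150 bases before the start of 4 genes the results turn on, with matches to the NRF1 core and to CCGGAAG, on either strand, in capitals: UQCR11, which came nearest to the threshold, the expressed isoform COX8A and its nearly silent counterpart COX8C, and COX7B2, an isoform known from testis that these tumours transcribe. They lie at chr19:1605463-1605612 (minus strand), chr11:63974470-63974619 (plus), chr14:93347032-93347181 (plus) and chr4:46909246-46909395 (minus).
UQCR11: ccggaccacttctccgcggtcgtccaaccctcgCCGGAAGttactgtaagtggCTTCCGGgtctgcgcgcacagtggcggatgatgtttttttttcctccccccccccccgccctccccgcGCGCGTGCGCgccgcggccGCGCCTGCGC
COX8A: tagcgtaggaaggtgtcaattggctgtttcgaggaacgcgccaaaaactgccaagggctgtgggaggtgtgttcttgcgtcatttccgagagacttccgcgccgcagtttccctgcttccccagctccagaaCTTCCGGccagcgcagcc
COX8C: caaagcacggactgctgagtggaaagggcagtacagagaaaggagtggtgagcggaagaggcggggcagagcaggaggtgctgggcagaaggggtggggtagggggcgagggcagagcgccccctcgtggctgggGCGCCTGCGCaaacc
COX7B2: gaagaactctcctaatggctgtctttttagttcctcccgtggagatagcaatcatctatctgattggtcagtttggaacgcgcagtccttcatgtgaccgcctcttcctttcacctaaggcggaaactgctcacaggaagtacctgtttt
The UQCR11 stretch held 2 NRF1 matches, 29 and 10 bases before the start, and 2 ETS matches, 117 and 97 bases before it. COX8A held 1 ETS match and COX8C 1 NRF1 match, and the COX7B2 stretch held neither.

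Bulk libraries held 37050750 to 49536763 counts in KMT5C tumours and 41665268 to 48003278 in CTRL tumours. KMT5C itself was at 99.8 to 145.2 CPM (counts per 1000000 of the scaled library) in KMT5C tumours against 7.16 to 11.2 CPM in CTRL tumours. Rat Pebp1, the RKIP transgene, was at 11.9, 205.2 and 126.04 CPM in RKIP tumours 1, 2 and 3, against 0, 0.608 and 0.295 CPM in CTRL tumours 1, 2 and 3, so the library labelled RKIP 1 held the least of it. The 8 markers expected to be high in this line were all present in both tables, and among those expected to be low PGR was at 0 to 0.109 CPM in bulk while ERBB2 reached 85.3 CPM. The summed skeletal muscle markers ran from 28.3 to 55.1 CPM in KMT5C tumours and from 13.4 to 25.1 CPM in CTRL tumours, without overlap. Of these markers 7 of the 11 tested were called higher in KMT5C tumours, where 2.96% of all 17947 genes tested were called in either direction. Of the other cell type markers, the leukocyte gene LAPTM5 (-0.65, edgeR adjusted p = 0.0020; 1 of 3 tested) and the endothelial gene TIE1 (-0.63, edgeR adjusted p = 0.0254; 1 of 4 tested) were called lower. The summed leukocyte markers ran from 92.8 to 121.02 CPM against 122.99 to 170.8 CPM, also without overlap, and the endothelial ones from 39.1 to 64.8 CPM against 56.1 to 82.5 CPM. These overlapped, as did fibroblast markers (390.5 to 872.98 CPM against 284.9 to 778.9 CPM) and adipocyte markers (0.747 to 1.18 CPM against 0.786 to 1.92 CPM), and the part of any of these cells in the values below was not tested except where muscle is named. In bulk tumours, fewer cells of a type and less RNA per cell cannot be told apart. These tumours were homogenised whole and only human builds are listed, so reads from mouse cells cannot be told apart from human reads in their counts.

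The first comparison asked whether KMT5C tumours differed from CTRL tumours in transcripts of the respiratory chain. No member passed the threshold: 108 of 115 members could be tested (95 nuclear, 13 mitochondrial), and edgeR's quasi-likelihood test called 0 at an adjusted p under 0.05, where it called 2.96% of all 17947 genes tested. At an unadjusted p under 0.05 there were 4 members, against 16.8% of all genes. The nuclear members had log2 fold changes (KMT5C minus CTRL) from -0.30 to 0.84 with a median of 0.020, and the mitochondrial members from -0.10 to 0.16 with a median of 0.0098, beside 0.0023 over all genes tested. Values were above 0 in 62 and below 0 in 33 of the 95 nuclear members, where 50.5% of all genes tested were above 0. The nuclear members moved together between tumours, as described below, so these values are not independent. The 95% interval of the change lay within 1.5-fold either way for 90 of 95 nuclear and 13 of 13 mitochondrial members. For these 103 members the data bound the difference to less than 1.5-fold in either direction. The smallest adjusted p of any member was 0.103.

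Complex I, the NADH dehydrogenase, has 37 nuclear members, all tested, with 24 values above and 13 below 0 and a median of 0.020. Their summed level was 1819 ± 161 CPM in KMT5C tumours and 1783 ± 179 CPM in CTRL tumours (SD, n = 5 each). NDUFS5, an accessory subunit and the one with the highest CPM over both arms together, was at 184, 169.7, 173.3, 150.9 and 212.4 CPM in KMT5C tumours 807, 809, 816, 820 and 823, against 140.8, 191.1, 205.7, 151.1 and 138.7 CPM in CTRL tumours 801, 803, 804, 813 and 815. The arms overlapped (log2 fold change 0.11, 95% interval -0.14 to 0.35). NDUFS7, which carries an iron-sulfur cluster next to the ubiquinone site, had the highest value of the complex. It was at 21.8, 27.03, 25.8, 23.1 and 23.1 CPM in the KMT5C tumours against 15.5, 17.5, 24.2, 19.7 and 20.8 CPM in the CTRL tumours. CTRL 804 lay within the KMT5C values, and the change of 0.31 (SE 0.11) did not pass (edgeR adjusted p = 0.149). Without CTRL 804 it was 0.40 and passed (edgeR adjusted p = 0.0466), in a fit that called 2.34% of all genes. The accessory subunit NDUFB7, named after its values were seen, had 0.23 (SE 0.097, edgeR adjusted p = 0.243). The lowest value was that of NDUFV2, a flavin-domain partner subunit, at -0.30 (95% interval -0.68 to 0.086), with 2.14 ± 0.57 CPM in KMT5C and 2.63 ± 0.25 CPM in CTRL tumours. NDUFA13 was also low in bulk (2.68 and 2.46 CPM), and NDUFA7, absent from the single-cell table, was lower still (0.645 and 0.743 CPM). In the single-cell CTRL tumours NDUFV2 averaged 10.03 CPM and NDUFA13 averaged 84.2 CPM, in a table where most members were higher than in bulk. The 8 complex I assembly factors had values from NDUFAF4 at -0.11 to NDUFAF2 at 0.12, and NDUFAF2 was also the most abundant, at 34.2 ± 6.27 and 31.5 ± 5.16 CPM.

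Complex II, the succinate dehydrogenase, was nearly level. SDHA, its flavoprotein, was at 146.2, 154.7, 151.02, 157.6 and 164.6 CPM in the KMT5C tumours against 133.05, 154.6, 154.4, 140.96 and 140.8 CPM in the CTRL tumours. The 2 highest values were both in KMT5C tumours and the lowest was in a CTRL tumour, but the arms overlapped (0.10, SE 0.065, edgeR adjusted p = 0.491). SDHD, a membrane anchor, had the smallest change of the 4 subunits, at 93.2 ± 4.96 and 92.2 ± 2.67 CPM (0.014, 95% interval -0.11 to 0.14). The 4 assembly factors ran from SDHAF1 at -0.092 to SDHAF4 at 0.055, and SDHAF3 was the most abundant at 14.4 ± 0.77 and 14.7 ± 1.30 CPM.

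In complex III, the cytochrome bc1 complex, 7 of 9 nuclear members had values above 0. UQCRC1, a core protein and the most abundant, was at 212.7 ± 33.4 CPM in KMT5C tumours and 210.8 ± 22.4 CPM in CTRL tumours (0.013). UQCRB, a ubiquinone-binding subunit, had the lowest value at -0.037 (SE 0.095). UQCR11, a small accessory subunit, was the member nearest to the threshold. It was at 15.3, 15.8, 16.5, 14.5 and 20.6 CPM in the KMT5C tumours against 11.9, 15.9, 13.6, 11.7 and 11.1 CPM in the CTRL tumours. Apart from CTRL 803, every CTRL tumour lay below every KMT5C tumour. The change was 0.36 (SE 0.11, 95% interval 0.12 to 0.61) and did not pass (edgeR adjusted p = 0.103). UQCR11 passed in 4 of the alternative fits listed at the end, 2 planned and 2 added after the data had been seen. The planned ones were DESeq2 (0.38, adjusted p = 0.0459; 5.53% of all genes called) and edgeR without a filter on low counts (0.36, adjusted p = 0.0432; 2.11% called). One added fit left out KMT5C 823, CTRL 803 and CTRL 804 (0.42, edgeR adjusted p = 0.0231; 2.1% called), and the other had a length covariate and is described with the length trend.

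In complex IV, cytochrome c oxidase, 15 of 19 nuclear members were tested, with 8 values above and 7 below 0 and a median of 0.0014. COX4I1, a regulatory subunit and the most abundant, was at 228.2, 234.5, 227.2, 201.8 and 315.1 CPM in the KMT5C tumours against 195.8, 256.8, 262.8, 217.7 and 204.6 CPM in the CTRL tumours. KMT5C 823 stood above the other 9 tumours, and the change was 0.085 (95% interval -0.16 to 0.33). In each isoform pair the ubiquitous form was the more abundant, by the least in COX7B and COX7B2. COX4I2, an isoform of lung, was at 0 to 0.0415 CPM in KMT5C and 0 to 0.065 CPM in CTRL tumours. COX6A2, of heart and skeletal muscle, was at 0 counts in all 10 tumours, beside COX6A1 at 109.6 ± 18.8 and 104.3 ± 15.1 CPM. COX6B2, of testis, was at 0.065 ± 0.040 and 0.043 ± 0.020 CPM beside COX6B1 at 143.6 ± 29.5 and 135.8 ± 22.01 CPM. COX8C was at 0.020 ± 0.022 and 0.013 ± 0.012 CPM beside COX8A at 106.1 ± 15.3 and 105.9 ± 12.7 CPM. NDUFA4L2, the hypoxia-induced relative of NDUFA4, was at 0.397 ± 0.25 and 0.418 ± 0.12 CPM, against 145.5 ± 16.2 and 147.2 ± 21.3 CPM of NDUFA4. COX7B2, of testis, was at 23.4 ± 2.00 CPM in KMT5C and 25.7 ± 4.25 CPM in CTRL tumours, beside COX7B at 88.3 ± 10.3 and 81.7 ± 18.1 CPM. COX7B2 had the lowest change of the complex, -0.14 (95% interval -0.36 to 0.087).

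COX7A1, the heart and skeletal muscle counterpart of COX7A2, had the highest change of any member at a very low level. It was at 0.538, 0.519, 0.436, 0.31 and 0.603 CPM in the KMT5C tumours against 0.305, 0.195, 0.282, 0.16 and 0.393 CPM in the CTRL tumours. Only KMT5C 820 and CTRL 815 made the arms overlap. The change of 0.84 (SE 0.30) did not pass (edgeR adjusted p = 0.164). The mean log2 CPM of the muscle markers was -0.43, 0.41, -0.19, 0.46 and -0.17 in the same KMT5C tumours and -0.79, -0.53, -0.54, -0.37 and -1.24 in the CTRL tumours. By this mean KMT5C 820 was the highest and had the lowest COX7A1 of its arm, while CTRL 815 was the lowest and had the highest COX7A1 of its arm. By summed CPM of the markers CTRL 815 was again the lowest, but KMT5C 809 was the highest (55.1 CPM, against 50.7 CPM in KMT5C 820). Its COX7A1 was at 0.519 CPM. COX7A1 held 167 counts over all 10 tumours, and the source of these counts was not tested. With the marker level as a covariate the COX7A1 change was 1.42 (edgeR adjusted p = 0.235). COX7A2 was at 117.7 ± 19.1 and 106.4 ± 16.9 CPM (0.14, SE 0.12).

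Complex V, the ATP synthase, had the highest summed CPM of nuclear members in bulk, 2736 ± 241 CPM in KMT5C and 2660 ± 284 CPM in CTRL tumours. ATP5F1B, its catalytic beta subunit, was at 602.9, 605.3, 597.99, 632.5 and 724.1 CPM in the KMT5C tumours against 600.8, 659.3, 671.7, 609.4 and 577.9 CPM in the CTRL tumours. Again KMT5C 823 was the highest and the arms overlapped (0.020, 95% interval -0.14 to 0.18). ATP5F1D, the delta subunit of the rotor, had the highest value of the complex at 0.17 (SE 0.096) and ATP5MJ, a small membrane subunit, the lowest at -0.14 (SE 0.11). The 3 genes for the same c subunit of the rotor ring were at 75.2 ± 10.2 and 75.6 ± 14.1 CPM (ATP5MC1), 156.7 ± 33.7 and 155.6 ± 19.3 CPM (ATP5MC2) and 142.6 ± 19.9 and 133.7 ± 14.98 CPM (ATP5MC3). Of the 19 members, ATP5MGL, a near-copy of ATP5MG, did not pass the filter on low counts: it averaged 0.0176 CPM in the bulk CTRL tumours but 39.1 CPM in the single-cell CTRL tumours. Reads shared with ATP5MG could be split differently, so its level is uncertain. Per length, the most abundant nuclear members were NDUFS5 (324.9 and 301.97 CPM per kb of exon) and ATP5F1B (272.4 and 268.7 CPM per kb).

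**Figure D1:**
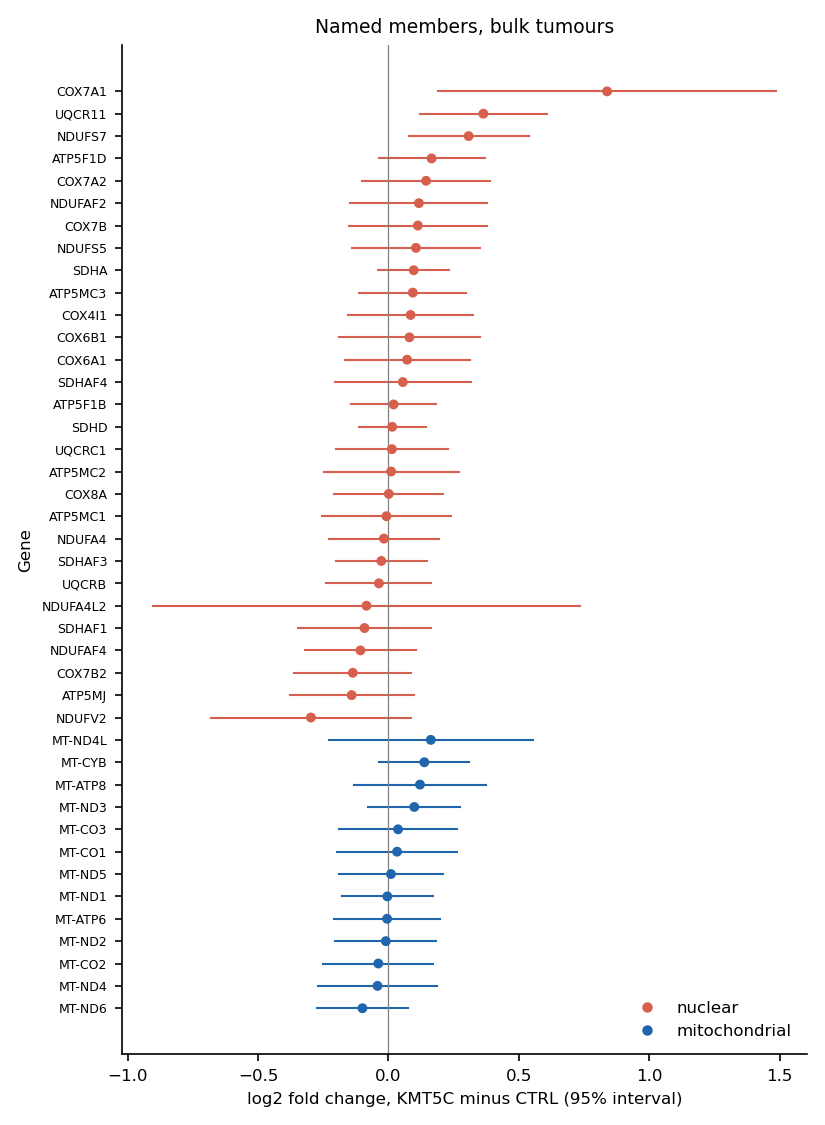
Log2 fold change, KMT5C minus CTRL bulk tumours, of the tested members named by rule, nuclear in red above and mitochondrial in blue below; points are edgeR estimates and lines their 95% intervals (n = 5 tumours per arm). COX7A1 at 0.84, UQCR11 at 0.36 and NDUFS7 at 0.31 have intervals above 0, and none of the 3 passed after adjustment over all genes.

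**Figure D2:**
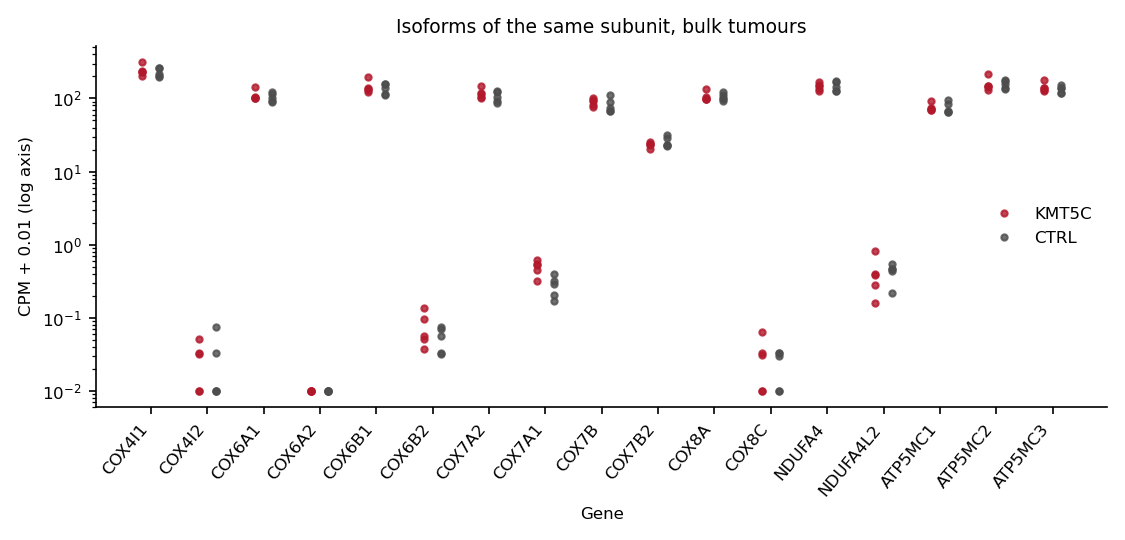
CPM plus 0.01, on a log axis, of genes that encode isoforms of the same subunit, 1 point per bulk tumour (KMT5C red, left of CTRL grey). COX6A2 is at 0 counts throughout, COX4I2, COX6B2 and COX8C lie near it, and COX7B2 lies at 20.04 to 31.5 CPM, closest to its ubiquitous partner.

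The 13 mitochondrially encoded genes were far more abundant than the nuclear ones, with 4.40% to 5.37% of all counts in KMT5C tumours and 4.61% to 5.43% in CTRL tumours, against 0.688% to 0.834% and 0.68% to 0.845% for the 102 nuclear members. The highest CPM was that of a cytochrome oxidase subunit: MT-CO1, which holds the oxygen-binding centre, averaged 13059 ± 1299 CPM in KMT5C tumours and 12762 ± 1590 CPM in CTRL tumours (0.033, SE 0.11). MT-CO2 was at 5766 ± 619 and 5923 ± 534 CPM (-0.039), and MT-CO3 at 6996 ± 938 and 6820 ± 610 CPM (0.037). Of the ATP synthase subunits, MT-ATP6 was at 4572 ± 492 and 4588 ± 382 CPM (-0.0050) and MT-ATP8 at 586.7 ± 87.5 and 539.5 ± 90.6 CPM (0.12). MT-CYB, the cytochrome b of complex III, was at 2226, 2460, 2305, 2688 and 2408 CPM in the KMT5C tumours against 2163, 2154, 2022, 2416 and 2232 CPM in the CTRL tumours. It had the smallest p of the 13, a change of 0.14 (SE 0.082) that did not pass (edgeR adjusted p = 0.429), and the arms overlapped. The complex I subunits were between MT-ND6, the one member on the minus strand, at -0.10 (SE 0.083) and MT-ND4L at 0.16 (SE 0.18). Among them MT-ND4 was at 6615 ± 766 and 6810 ± 818 CPM (-0.042), and MT-ND1 and MT-ND2 were at -0.0041 and -0.0099. MT-ND3 had 0.099 and MT-ND5 0.0098.

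Per kb of exon, the mitochondrial genes differed among themselves by several fold in both arms. MT-CO3 was highest, at 8924 CPM per kb in KMT5C and 8699 CPM per kb in CTRL tumours, with MT-CO1 (8469 and 8276) and MT-CO2 (8430 and 8660) beside it. MT-ND5 and MT-ND6 were lowest, at 960.1 and 953.6 and at 1044 and 1119 CPM per kb. The genes that overlap in the genome, MT-ATP8 with MT-ATP6 by 46 bases and MT-ND4L with MT-ND4 by 7 bases in GENCODE 29, share transcripts, and reads over the overlap can be assigned to either or neither. The level of MT-ATP8 was 12.8 ± 0.73% of that of MT-ATP6 in KMT5C tumours and 11.8 ± 1.89% in CTRL tumours, with the lowest values in CTRL 804 (9.07%) and CTRL 803 (10.6%). The level of MT-ND4L was 10.9 ± 0.92% of that of MT-ND4 in KMT5C and 9.50 ± 2.44% in CTRL tumours, again lowest in CTRL 804 (6.00%) and CTRL 803 (8.04%). Whether the counting used strand is not stated in the sources used here, so MT-ND6 and MT-ND5 reads may not have been told apart.

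Nuclear and mitochondrial members were then set against each other in each tumour. The nuclear members summed to 7323, 7147, 7269, 7046 and 8866 CPM in KMT5C tumours 807, 809, 816, 820 and 823, against 6624, 7934, 8431, 7167 and 6626 CPM in CTRL tumours 801, 803, 804, 813 and 815. The mitochondrial members summed to 42692, 48783, 45092, 54979 and 50716 CPM in the KMT5C tumours, against 46494, 47192, 45946, 55483 and 44896 CPM in the CTRL tumours. KMT5C 823, CTRL 804 and CTRL 803 were the highest in nuclear members, whereas CTRL 813 and KMT5C 820 were the highest in mitochondrial ones. The log2 ratio of the nuclear to the mitochondrial sum was -2.54, -2.77, -2.63, -2.96 and -2.52 in the KMT5C tumours, against -2.81, -2.57, -2.45, -2.95 and -2.76 in the CTRL tumours. The arms overlapped over nearly their whole range, and the arm means, -2.69 ± 0.18 and -2.71 ± 0.20, differed by 0.023, less than the SD of either arm. Since the members were chosen with results of these data known, no p is given for these sums.

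**Figure D3:**
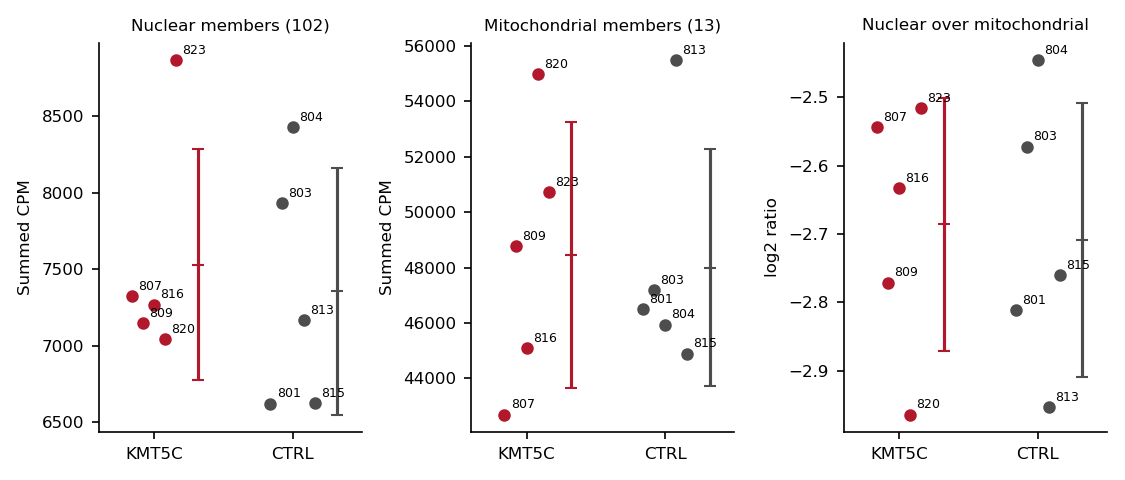
Summed CPM of the 102 nuclear members, of the 13 mitochondrial members and the log2 ratio of both sums in each bulk tumour (points, with tumour numbers), with the mean and SD of each arm beside them, KMT5C left of CTRL (axes do not start at 0). The arms overlap in all 3 panels: nuclear sums reach 8866 CPM in KMT5C 823 and 8431 CPM in CTRL 804.

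The nuclear members varied more between tumours of an arm than between the arms, and did so together. Over the 89 nuclear members with a mean of at least 5 CPM, the median Pearson correlation between pairs over the 10 tumours was 0.69, and 92.8% of the pairs were above 0. These values describe genes counted in the same libraries. In KMT5C 823, 89 of the 95 tested nuclear members lay above their own mean over the 10 tumours, with a median deviation of 0.25 on the log2 scale. In CTRL 804 it was 88 (0.19) and in CTRL 803 it was 82 (0.10), while in CTRL 801 and CTRL 815 it was 10 (-0.17) and 11 (-0.15). KMT5C 823, CTRL 804 and CTRL 803 had the highest sums of nuclear members in complexes I, III, IV and V. For complex I they were at 2099, 2041 and 1886 CPM, against 1611 to 1773 CPM in the other 7 tumours. Complex II did not follow this order: KMT5C 823 was highest at 437.7 CPM, but KMT5C 820 came next at 397.3 CPM, above CTRL 803 at 395.5 CPM and CTRL 804 at 391.7 CPM.

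A property of the libraries outside the members moved with it. Over 10746 other genes, the Spearman correlation of a tumour's deviations with exon length was 0.19, 0.11, 0.26, 0.26 and -0.37 in KMT5C tumours 807, 809, 816, 820 and 823, and 0.49, -0.36, -0.40, -0.057 and 0.33 in CTRL tumours 801, 803, 804, 813 and 815. Short genes were thus relatively high in the same 3 tumours in which the nuclear members were high, and low in CTRL 801 and CTRL 815. Within the 89 members, the deviation in KMT5C 823 had a rank correlation of -0.35 with exon length, in CTRL 804 of -0.33, in CTRL 803 of -0.42 and in CTRL 801 of 0.39. The log2 fold change of these members between the arms had a rank correlation of 0.0096 with exon length. The 83 cytosolic ribosomal protein genes, a list chosen after the data had been seen, summed to 73075 CPM in KMT5C 823, against 48014 to 51896 CPM in the other KMT5C tumours. They summed to 61386 and 57890 CPM in CTRL 804 and CTRL 803, and to 45357 CPM in CTRL 801, but also to 59791 CPM in CTRL 813. The 76 mitochondrial ribosomal protein genes summed to 4184 CPM in KMT5C 823, 4110 CPM in CTRL 804 and 3976 CPM in CTRL 803, against 3434 to 3657 CPM in the other tumours. Whether the length trend has a part in the members' levels was not tested. With the trend as a covariate, an alternative added after the data had been seen, 3 members were called: UQCR11 (0.41, edgeR adjusted p = 0.0063), NDUFB7 (0.27, adjusted p = 0.0235) and COX7A2 (0.20, adjusted p = 0.0481). That fit called 7.38% of all genes.

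**Figure D4:**
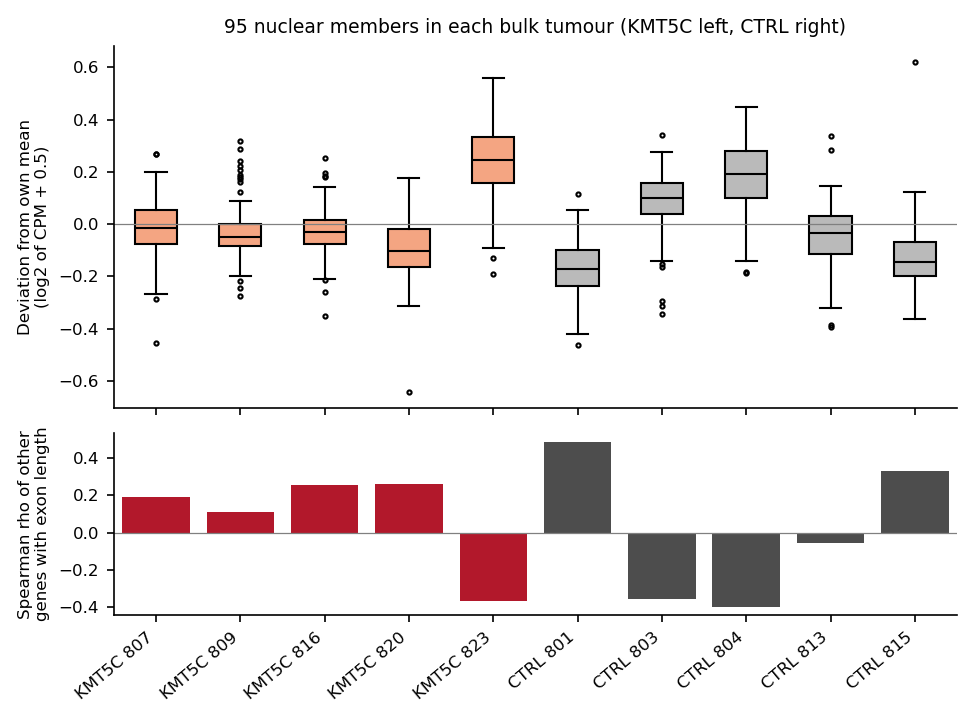
Upper panel: deviation of each of the 95 tested nuclear members from its own mean over 10 bulk tumours, as log2 of CPM plus 0.5 (boxes: quartiles and median; whiskers: 1.5 times the interquartile range; KMT5C left of CTRL). Lower panel: Spearman correlation of the deviations of 10746 other genes with exon length; it is negative beyond -0.3 in KMT5C 823, CTRL 803 and CTRL 804, the tumours with the highest boxes.

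Genes that act around the respiratory chain were given by 6 lists. Of 16 regulators of mitochondrial biogenesis, 2 rose and 0 fell (median log2 fold change 0.016), where 2.96% of all genes were called in either direction and 5.70% had arms that did not overlap. PPARD, a fatty acid-sensing nuclear receptor, was at 134.2, 134.6, 137.8, 142.4 and 141.02 CPM in the KMT5C tumours against 113.8, 122.9, 116.6, 103.7 and 116 CPM in the CTRL tumours, without overlap (0.27, SE 0.062, edgeR adjusted p = 0.0260). PPARA, its relative in fatty acid oxidation, was at 26.1, 27.9, 25.05, 26.9 and 32.4 CPM against 24.01, 19.4, 14.98, 19.5 and 22.5 CPM, also without overlap (0.46, SE 0.11, edgeR adjusted p = 0.0373). With the muscle marker covariate neither passed, at changes as large and with larger SEs: PPARD had 0.28 (SE 0.094, edgeR adjusted p = 0.337) and PPARA had 0.59 (SE 0.17, edgeR adjusted p = 0.214). Without the 2 KMT5C tumours highest in those markers PPARD had 0.27 (SE 0.078, edgeR adjusted p = 0.164) and PPARA had 0.47 (SE 0.14, edgeR adjusted p = 0.178). Of the 18 alternatives PPARD passed in 12 and PPARA in 8. The coactivator PPARGC1A was at 2.87 ± 0.50 and 3.54 ± 0.81 CPM (-0.30, SE 0.17, edgeR adjusted p = 0.407). PPARGC1B had 0.14, NRF1 0.030, GABPA 0.065 and ESRRA -0.050, and none passed.

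Of 48 other assembly and electron carrier genes, 47 were tested and 1 fell. Over all genes, 2.96% were called in either direction and 5.70% had arms that did not overlap. COA1, an assembly factor of complexes I and IV, was at 102.7, 95.6, 101.1, 99.5 and 94.6 CPM in the KMT5C tumours against 138.6, 129.7, 149.8, 110.95 and 142.4 CPM in the CTRL tumours. The arms did not overlap, and the change was -0.44 (SE 0.077, edgeR adjusted p = 0.0044). COA1 passed in 16 of the 18 alternatives, and not with the muscle covariate (-0.34, edgeR adjusted p = 0.321) or without the 2 muscle-high tumours (-0.43, edgeR adjusted p = 0.0657). The list's median was -0.014. No gene passed among 32 genes of mitochondrial gene expression (median -0.026, with TFAM at 0.080 and POLRMT at 0.18), 75 mitochondrial ribosomal proteins (-0.016), 19 genes of the tricarboxylic acid cycle (-0.0028) and 23 of glycolysis (-0.017).

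The second comparison asked whether RKIP tumours differed from CTRL tumours in summed counts of their cells. Each tumour contributed 247 to 274 cells and 19516061 to 34568923 counts. No nuclear member passed: edgeR with the replicate experiment as a block called 0 of 93, where it called 0.00688% of 14528 genes (the transgene alone). At an unadjusted p under 0.05 there were 3 members, against 4.01% of all genes, and DESeq2 also called 0 members. The members had log2 fold changes (RKIP minus CTRL) from -0.57 to 0.62 with a median of 0.010, beside 0.0029 over all genes. Of the 93 values 49 were above 0, where 50.3% of all genes tested were. The 95% interval lay within 1.5-fold for 60 of the 93, and for the others the interval reached beyond it. The members' sums were 30580, 31466 and 32527 CPM in RKIP tumours 1, 2 and 3, against 29656, 31053 and 33383 CPM in CTRL tumours 1, 2 and 3. By complex, nuclear sums were 9275 ± 396 and 9017 ± 128 CPM for complex I, 178.97 ± 20.5 and 225.4 ± 52.8 CPM for II, 5361 ± 562 and 5249 ± 468 CPM for III, 8032 ± 288 and 7997 ± 785 CPM for IV, and 8140 ± 483 and 8276 ± 800 CPM for V (SD, n = 3 each).

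The 3 members with an unadjusted p under 0.05 were all lower in RKIP tumours. NDUFB9, a complex I subunit, was at 183.6, 129.1 and 153.97 CPM in RKIP tumours 1, 2 and 3 against 246.3, 218.6 and 211.3 CPM in CTRL tumours, without overlap (-0.55, SE 0.13, edgeR adjusted p = 0.973). ATP5ME, a membrane subunit of complex V, was at 569.3, 718.3 and 765.3 CPM against 766.4, 854.5 and 848.6 CPM, also without overlap (-0.28, SE 0.097, adjusted p = 0.973). In all, 9 of the 93 members had arms that did not overlap, against 8.90% of all genes. SDHA was at 106.1, 87.98 and 85.5 CPM in RKIP tumours against 132.1, 197.6 and 97.1 CPM in CTRL tumours (-0.55, SE 0.23). The high value of CTRL 2 came from 1 cell: at 20000 counts per cell that cell held 1123 SDHA counts, 73.3% of all SDHA counts of the tumour, where the next cell of the tumour held 22. Without it the mean of CTRL 2 was 1.67 counts per cell in place of 6.23, beside 1.92, 1.93 and 1.66 in RKIP tumours 1, 2 and 3 and 2.56 and 2.18 in CTRL tumours 1 and 3.

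In single cells thinned to 20000 counts, the nuclear members made up a median of 2.90%, 3.07% and 3.36% of a cell's counts in RKIP tumours 1, 2 and 3, against 2.72%, 3.09% and 3.51% in CTRL tumours 1, 2 and 3. The quartiles of RKIP 1 were 2.45% and 3.29%, and those of CTRL 1 were 2.35% and 3.29%. In both arms tumour 1 had the lowest and tumour 3 the highest median. Matching of tumours by number rests on name endings, which no source states to be the same experiment. In summed counts the isoform COX7B2 was at 63.6, 42.3 and 45.9 CPM in RKIP tumours against 34.6, 40.7 and 49.8 CPM in CTRL tumours (0.27, SE 0.27, edgeR adjusted p = 0.973), with overlap, beside COX7B at 259.2, 274.5 and 269.4 CPM against 243.4, 294.7 and 336.2 CPM.

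**Figure D5:**
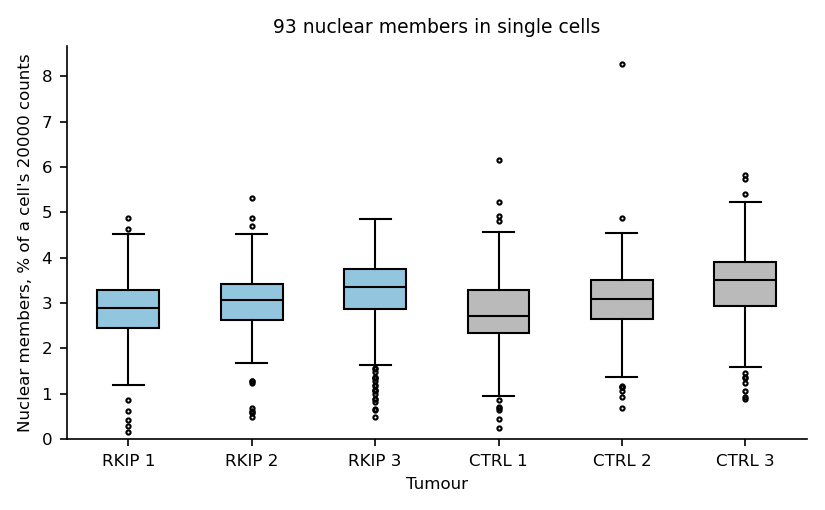
Share of a cell's 20000 thinned counts taken by the 93 nuclear members, per single-cell tumour (boxes: quartiles and median; whiskers: 1.5 times the interquartile range; points: cells beyond them; RKIP left of CTRL). The medians lie between 2.72% and 3.51%, with the arms overlapping.

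The third comparison concerned variation between cells, measured for each gene and tumour as the squared coefficient of variation relative to its trend on the mean (log2 scale). No member passed: limma with the block called 0 of 92 testable members, as it did for 0.0% of 9910 genes, and 3 members had an unadjusted p under 0.05 against 4.08% of all genes. The members varied less between cells than other genes of the same mean in all 6 tumours, with a median residual of -1.09, -0.85 and -0.75 in RKIP tumours 1, 2 and 3 and of -0.92, -0.72 and -0.68 in CTRL tumours 1, 2 and 3, beside -0.041 to -0.10 over all genes. The difference between arms (RKIP minus CTRL) had a median of -0.055 over the members and -0.017 over all genes. ATP5PB, a stalk subunit of complex V, had a difference of 0.86 (SE 0.32), COX7B2 of -0.68 (SE 0.28) and SDHA of -2.62 (SE 1.18), each with a limma adjusted p = 0.944. The SDHA residual of CTRL 2 was 6.56, in the tumour with the single high cell. Between cells of a tumour, the summed counts of complexes I and V had Spearman correlations of 0.40, 0.51 and 0.46 in RKIP tumours and 0.41, 0.50 and 0.39 in CTRL tumours, as a description of cells that share a depth of 20000 counts. Over pairs of the 74 members with a thinned mean of at least 1 count, the median correlation was 0.075 to 0.14 in RKIP and 0.093 to 0.13 in CTRL tumours, which is weak in sparse counts.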

How the data were processed

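Both tables hold raw counts as deposited: whole-number counts per gene and tumour (bulk) or per gene and cell (Fluidigm C1 HT). The submitters' processing notes list Trim Galore, STAR and featureCounts, and the builds hg38 and hg19 without their roles. The authors' counting settings are not stated, and no coordinates are taken from the tables. Symbols follow current names, and chromosomes and exon lengths GENCODE 29. Among single-cell gene names, 408 were restored from altered spellings.

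Bulk counts were tested with edgeR 4.0.16 (R 4.3.3; filterByExpr, TMM, robust quasi-likelihood). Cells were summed per tumour, leaving out 1 cell with fewer than 1000 genes, and tested likewise with the replicate experiment as a block, because per the labels each experiment processed a CTRL and an RKIP tumour together. Matching name endings were taken as an experiment, which no source states, and the numbers 1 to 3 are arbitrary. Deviations of matched tumours correlated at 0.12, -0.0018 and 0.11. Variation was taken in cells thinned to 20000 counts (87 shallower cells left out) and tested with limma 3.58.1. Tests were two-sided, adjusted by Benjamini-Hochberg over all genes, with a threshold of 0.05. Of 577 chip positions, 551 were used by cells of more than 1 tumour, and 0 full cell names were shared. The doublet state of cells was not examined.

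The fits were tested on simulated data. Members and lists were chosen with earlier results of these data known. Members named by rule are the 13 mitochondrial genes, isoform pairs, and per complex the most abundant member and those with the highest and lowest change. Other members were named after their values were seen. Among them are NDUFB7, NDUFB9, ATP5ME, ATP5PB and some of those given for their ratio of single-cell to bulk level. Motif strings were chosen while the promoters were at hand. DESeq2 1.42.0, other scalings and filters, and leaving out tumours were tried as alternatives.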

Additional observations from a re-analysis of the deposited data

Results flagged for a closer look

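Of 108 sets of 5 values examined (the named members and their sums, each arm apart), 22 held a tumour far from the other 4 of its arm, where chance gives about 1 in 20. KMT5C 823 accounted for 17 of them, and these share 1 library and are not independent. It was the highest of its arm in the summed nuclear members (8866 CPM) and in the nuclear members of complexes I (2099 CPM), III (971.8 CPM), IV (1949 CPM) and V (3163 CPM). Single genes with KMT5C 823 as the high tumour were ATP5F1B (724.1 CPM), ATP5MC1 (92.98 CPM), ATP5MC2 (215.2 CPM), ATP5MC3 (177.2 CPM), COX4I1 (315.1 CPM), COX6A1 (143.2 CPM), COX6B1 (195.1 CPM), COX8A (132.7 CPM), NDUFAF2 (45.3 CPM), SDHAF4 (14.01 CPM) and UQCRC1 (271.1 CPM). The mitochondrial gene MT-ND5 was low in the same tumour (1443 CPM).

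CTRL 813 stood apart in MT-CO1 (15553 CPM) and in the summed mitochondrial members (55483 CPM). SDHD was low in CTRL 815 (87.6 CPM). The level of MT-ND4L relative to MT-ND4 was high in KMT5C 820 (12.5%). The 12S ribosomal RNA MT-RNR1, which is no member, was at 5768 CPM in KMT5C 809, and at 1148 to 1768 CPM in the other KMT5C tumours. Whether library quality has a part in any of these was not tested.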

How the results depend on the processing

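Alternatives numbered 16 planned and 2 added after the data had been seen for the bulk calls, 12 and 1 for the nuclear-to-mitochondrial ratio, 7 for the single-cell sums and 6 for variation. The 2 added ones followed the length trend of the libraries. The 3 tumours left out together were chosen on that trend, computed without the members, but they were already known to be the highest in nuclear members, so this choice was not independent of the outcome. Bulk members called numbered 0 as reported, 1 with DESeq2 (UQCR11, adjusted p = 0.0459), 1 with no filter on low counts (UQCR11, edgeR adjusted p = 0.0432), 3 with the length trend and 1 without KMT5C 823, CTRL 803 and CTRL 804 (UQCR11, 0.42, edgeR adjusted p = 0.0231). Leaving out single tumours gave 0 to 1, the 1 being NDUFS7 without CTRL 804, and the other bulk alternatives gave 0. Over all bulk alternatives the adjusted p of UQCR11 ran from 0.0063 to 0.522. The single-cell and variation alternatives, with and without the replicate block, all called 0 members. Bulk tumours share no numbers across arms, so no paired analysis was possible because nothing pairs them.

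Over all genes, 531 were called in bulk, 1107 with DESeq2, 801 with no filter, 1325 with the length trend, 41 with the level of muscle markers as covariate, 166 without the 2 KMT5C tumours highest in muscle markers, 337 without KMT5C 820, 344 without KMT5C 807 and 351 without CTRL 803. The single-cell fit called 1, 60 with DESeq2 and 0 with no replicate block, without experiment 2 or without experiment 3. The variation fit called 0, 6 without experiment 1 and 2 without experiment 2. The difference in the log2 ratio (0.023) ran from -0.038 to 0.11 over its alternatives, within 1 SD.

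The following named log2 fold changes changed sign, uncalled in both fits. With RLE factors: ATP5MC1 0.0044, MT-ATP6 0.0051, MT-ND1 0.0052. With DESeq2: ATP5MC1 0.0083, MT-ATP6 0.0091, MT-ND1 0.0091, MT-ND2 0.0040. With mitochondrial genes out of the library size: ATP5MC1 0.0025, MT-ATP6 0.0029, MT-ND1 0.0029. With no filter: COX8A -0.0063. With the muscle covariate: ATP5F1B -0.022, ATP5MC2 -0.11, COX8A -0.047, MT-ATP8 -0.070, MT-CO1 -0.17, MT-CO3 -0.20, MT-ND4L -0.0036, SDHAF4 -0.0028, UQCRC1 -0.082. Without the 2 muscle-high tumours: ATP5MC1 0.053, MT-ATP8 -0.00026, MT-CO1 -0.046, MT-CO3 -0.046, MT-ND5 -0.035, NDUFA4 0.080, SDHAF3 0.0097, UQCRB 0.040. With the length trend: ATP5MC1 0.046, MT-ATP6 0.0089, MT-ND5 -0.026, NDUFA4 0.033, UQCRB 0.011. Without the 3 tumours: ATP5MC1 0.10, ATP5MC2 -0.054, COX7B2 0.011, MT-ATP8 -0.045, MT-CO1 -0.046, MT-ND4L -0.13, MT-ND5 -0.021, MT-ND6 0.031, NDUFA4 0.076, SDHAF3 0.012, SDHD -0.0087, UQCRB 0.073, UQCRC1 -0.0020. Leaving out single tumours gave ATP5F1B -0.037 to 0.054, ATP5MC1 -0.10 to 0.10, ATP5MC2 -0.13 to 0.086, ATP5MC3 -0.00058 to 0.15, COX4I1 -0.033 to 0.15, COX6A1 -0.047 to 0.14, COX6B1 -0.059 to 0.15, COX8A -0.10 to 0.071, MT-ATP6 -0.046 to 0.054, MT-CO1 -0.012 to 0.12, MT-CO2 -0.083 to 0.017, MT-CO3 -0.033 to 0.10, MT-ND1 -0.046 to 0.039, MT-ND2 -0.078 to 0.039, MT-ND4 -0.082 to 0.045, MT-ND5 -0.045 to 0.066, NDUFA4 -0.080 to 0.047, NDUFA4L2 -0.52 to 0.14, NDUFAF2 -0.0083 to 0.21, SDHAF3 -0.064 to 0.033, SDHAF4 -0.054 to 0.12, SDHD -0.022 to 0.039, UQCRB -0.079 to 0.052 and UQCRC1 -0.093 to 0.070. The cause was not tested. With 3 tumours per arm, the intervals of the single-cell fit are wide, which limits what its 0 calls show.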

Other observations

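Of the 95 tested nuclear members, 12 lie on chromosome 19, and 8 of them had a value above 0 in KMT5C tumours, with a median log2 fold change of 0.14. UQCR11, NDUFS7, NDUFB7, COX7A1 and ATP5F1D are among them. Of the 83 members on other chromosomes, 54 had a value above 0, with a median of 0.020. All 1194 tested genes of chromosome 19 had a median of 0.027, with 663 above 0. Of these genes 41 were called, where 2.96% of all 17947 genes tested were called. The grouping was noticed after the values had been seen, and no test was made of it.

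The 40 tested members with an NRF1 or ETS match had a median change of 0.026 and the 38 with neither of 0.010, and 0 of both were called by edgeR.

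Bulk and single-cell levels ranked the members only in part alike, with a Spearman correlation of 0.48 over 93 members between the CTRL tumours of both tables, which differ in assay, time and cells. The lowest ratios of single-cell to bulk level were those of SDHC (8.69 against 51.8 CPM), SDHD (19.3 against 92.2 CPM), ATP5F1B (210.8 against 623.8 CPM) and UQCRC2 (36.5 against 99.6 CPM). Most members, however, were higher in the single-cell table. The nuclear members summed to a mean of 31364 CPM in its CTRL tumours (93 members), against 7356 CPM in the bulk CTRL tumours (102 members). The single-cell table holds no mitochondrially encoded genes, so its CPM has a different base. The highest ratios of single-cell to bulk level were those of ATP5MGL (39.1 against 0.0176 CPM), ATP5ME (823.2 against 18.5 CPM), UQCR10 (1760 against 45.3 CPM), NDUFA13 (84.2 against 2.46 CPM) and UQCRQ (1945 against 75.2 CPM). Levels here are not per length.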
